A study of Mus musculus with 6 samples.

Results

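The HIN-200 genes, also called the Ifi200 or PYHIN genes, are a family of interferon-inducible nuclear and cytosolic proteins that bind nucleic acids. Of 21955 genes in the deposited tables, 10 are members, Ifi203, Ifi204, Ifi205, Ifi206, Ifi207, Ifi208, Ifi209, Ifi211, Ifi213 and Mndal. They were chosen by symbol with their normalised counts in the 2 groups of libraries, and the difference between them, already known. Their values in that comparison are therefore given as a description, without p-values. How many members pass the threshold applied to all genes is given only beside the share of all genes that do. The libraries were made from poly-A RNA of neutrophils taken from the dura mater, the outer meninx, of wild-type mice that had met a social threat. The series has 3 libraries labelled female and 3 labelled male, all taken after the exposure. The labels give no strain, age or pooling of animals, and nothing in them says that replicates came from separate mice.

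A HIN domain binds DNA through its sugar-phosphate backbone, and most family members pair it with a pyrin domain, which joins other pyrin-domain proteins. Ifi204, the mouse relative of human IFI16, acts in the response to DNA together with the adaptor STING. Aim2, a relative in the same gene cluster, builds an inflammasome with the adaptor Pycard, and Ifi202b restrains Aim2. In neutrophils and other myeloid cells the family is known chiefly as a set of genes induced by type I interferon, through interferon-stimulated response elements near their start sites.

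Total counts were 18555944 to 20778410 in the libraries labelled female, against 17098026 to 18272577 in those labelled male. Among the cell type marker lists the neutrophil list had the highest sum in every library, with S100a9 at 17230 to 21810 CPM in libraries labelled female against 14410 to 16350 CPM in libraries labelled male. CPM here means counts scaled to library size, with TMM factors that correct for library composition. The Y-linked genes Ddx3y, Eif2s3y, Kdm5d and Uty together had 312 to 328 CPM in the libraries labelled female, against 307 to 318 CPM in those labelled male. The label female is thus at odds with the Y-linked transcripts in all 3 libraries that carry it. Directions below compare libraries so labelled, not female with male mice. The library labelled female replicate 3 stood farthest from its group, with a chi-square per degree of freedom of 13.4 and 16.5 against the other libraries labelled female, where that pair differed by 5.14.

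All 10 members lie in a single cluster on chromosome 1, and their start sites carry the interferon-stimulated response element in a small number of versions. The element was searched as GAAA, any 2 bases and GAAA again, on both strands, in RefSeq windows of build GRCm38.p6, which run from 250 bases before each annotated start to 50 after it. Of 9 members with a window, 8 held a match, against 3.99% of 27025 genes with a window. Ifi204 has no window in that table. The stretches of 40 bases around the matches are shown because they set the members into groups that share nearly the same letters. Capitals mark the element, and each is written 5′ to 3′ on the strand of its gene.
Ifi213: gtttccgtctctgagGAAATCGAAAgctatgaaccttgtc
Ifi208: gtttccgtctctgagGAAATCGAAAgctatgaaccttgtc
Ifi206: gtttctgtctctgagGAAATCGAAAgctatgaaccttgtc
Ifi203: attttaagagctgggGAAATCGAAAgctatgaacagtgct
Mndal: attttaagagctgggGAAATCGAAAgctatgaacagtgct
Ifi207: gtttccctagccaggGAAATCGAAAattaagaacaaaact
Ifi211: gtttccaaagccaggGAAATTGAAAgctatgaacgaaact
Ifi205: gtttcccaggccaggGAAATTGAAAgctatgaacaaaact
Ifi214, a cluster gene outside the members: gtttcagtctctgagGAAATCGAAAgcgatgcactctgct
Ifi209, with no match: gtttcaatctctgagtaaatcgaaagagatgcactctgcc

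The element began 73 bases before the annotated start in Ifi213 (stretch at chr1:173599321-173599360, minus strand), 58 in Ifi208 (chr1:173673592-173673631, plus strand) and 40 in Ifi206 (chr1:173491334-173491373, minus strand). It began 35 bases before the start in Ifi203 (chr1:173942503-173942542), 36 in Mndal (chr1:173880199-173880238), 41 in Ifi207 (chr1:173741826-173741865), 37 in Ifi211 (chr1:173913059-173913098) and 134 in Ifi205 (chr1:174031865-174031904), all on the minus strand. Ifi205 and another start-site window of Mndal also held a match on the opposite strand. The stretches of Ifi213 and Ifi208 were identical, and that of Ifi206 differed from Ifi213 by C6T, counted from 1 at the 5′ end of the stretch. Those of Ifi203 and Mndal were identical as well.

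Ifi209 was the member whose window held no match. Its stretch (chr1:173630765-173630804, plus strand) differed from that of the cluster gene Ifi214 (chr1:173536012-173536051, minus strand) by 4 substitutions, G7A, G16T, C27A and T40C. G16T falls on the first base of the element. The GAS element, searched as TTCNNNGAA, which reads the same on both strands, was in none of the 9 members' windows and in 9.55% of all genes with a window. These are matches of letters in windows of fixed length and say nothing of binding.

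The groups seen in the stretches held over the whole windows. Aligned without penalty at the ends, the windows of Ifi206, Ifi208 and Ifi213 were 98.9% to 99.3% identical to each other over 266 to 285 bases. Those of Ifi203 and Mndal were 97.6% identical over 289 bases, those of Ifi209 and Ifi214 96.0% over 299 bases, and those of Ifi205 and Ifi211 94.0% over 201 bases. Ifi207 was 88.7% identical to Ifi205 and 88.4% to Ifi211. By contrast, Ifi209 was 74.4% identical to Ifi213 over 250 bases.

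**Figure D1:**
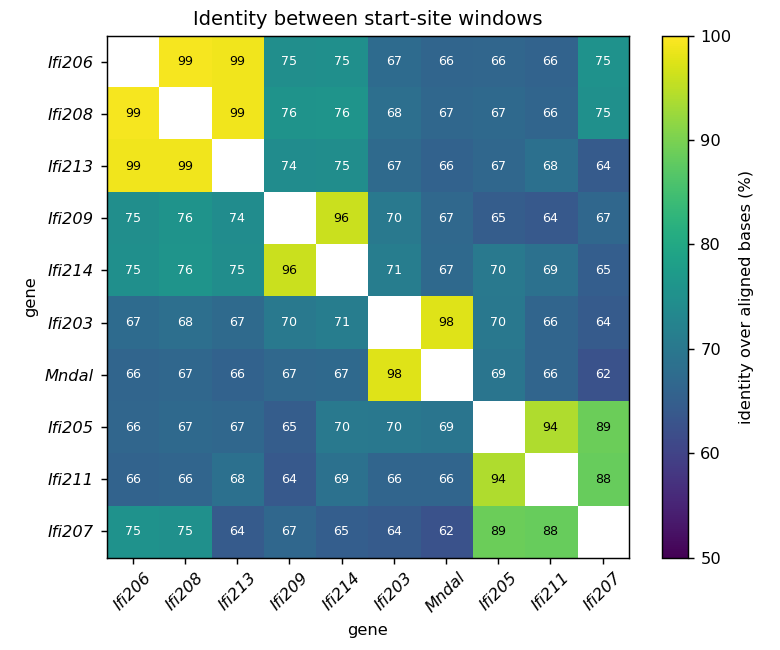
Percent identity between the start-site windows of 10 Ifi200 genes, over aligned bases, with the colour scale running from 50 to 100%. Ifi206, Ifi208 and Ifi213 form a block at 98.9% to 99.3%, and Ifi203 with Mndal, Ifi209 with Ifi214, and Ifi205 with Ifi211 form pairs at 94.0% or more.

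The 250 bases before the start are given whole for the member with the largest difference between the groups and for the one with the smallest. The capitals again mark the element, which the second sequence lacks.
Ifi213 (chr1:173599273-173599522, minus strand): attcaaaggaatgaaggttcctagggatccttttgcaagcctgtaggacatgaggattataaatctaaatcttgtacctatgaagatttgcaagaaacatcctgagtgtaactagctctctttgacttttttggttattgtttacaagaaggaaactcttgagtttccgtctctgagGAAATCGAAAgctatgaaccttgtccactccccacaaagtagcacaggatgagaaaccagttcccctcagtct
Ifi209 (chr1:173630609-173630858, plus strand): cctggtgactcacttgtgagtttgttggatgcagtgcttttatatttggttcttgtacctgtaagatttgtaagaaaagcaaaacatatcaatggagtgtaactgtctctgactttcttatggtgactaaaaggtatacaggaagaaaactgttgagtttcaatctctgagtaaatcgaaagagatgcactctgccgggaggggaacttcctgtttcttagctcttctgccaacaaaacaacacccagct

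Every one of the 10 HIN-200 genes had its lower values under the label female, and in none did the groups overlap. Summed over the family, the level was 823, 788 and 736 CPM in the libraries labelled female, against 1304, 1259 and 1243 CPM in those labelled male. The family took 0.0714% to 0.0838% of all counts in libraries labelled female against 0.122% to 0.128% in libraries labelled male. The mean was 782 ± 43.6 CPM in libraries labelled female against 1268 ± 31.6 CPM in libraries labelled male (SD, n = 3 each), 1.62-fold lower. A sum does not depend on how reads shared by near-identical members were split between them. It would change if such reads were left out or counted more than once, which is not known here. The members' log2 fold changes (label female minus label male) ran from -1.67 to -0.49 with a median of -0.75, where the median over all 11903 genes tested was 0.00. In bulk RNA, fewer cells of a type and less RNA per cell cannot be told apart.

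Read by the same rule as all genes, edgeR's quasi-likelihood test with an adjusted p under 0.05, 10 of 10 members passed in the lower direction, where 6.62% of all genes tested did and 13.9% passed in either direction. The groups did not overlap in the same 10, where 15.0% of all genes tested had the libraries labelled female wholly below the others. Both counts come from the comparison by which the members were picked, so nothing is read from them. The all-gene count of lower genes itself moved with single libraries. It was 788 with all libraries, 1269 without female replicate 3, 521 without female replicate 2, and 522, 496 and 467 without male replicates 1, 2 and 3.

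**Figure D2:**
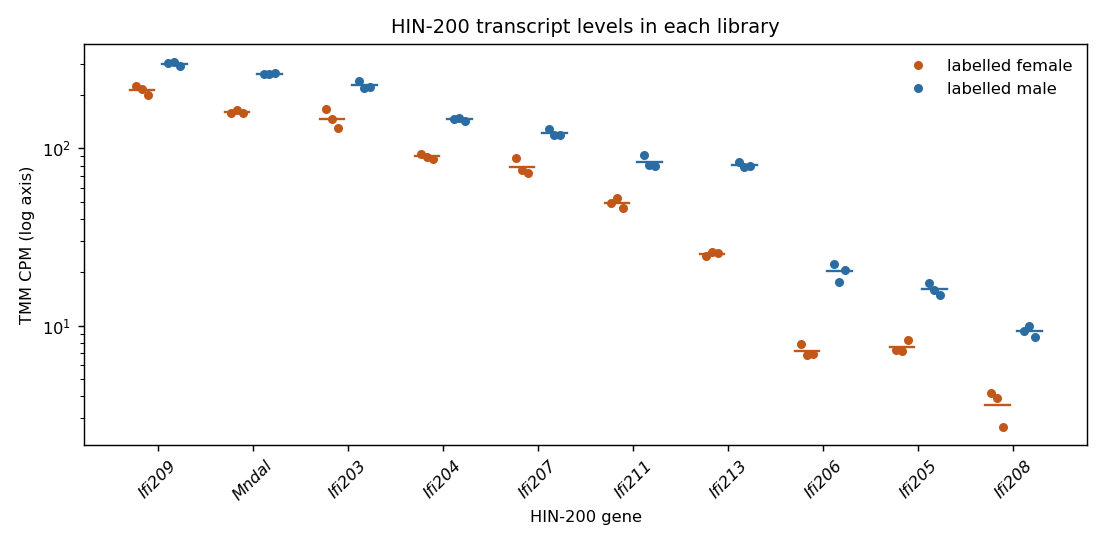
TMM CPM (log axis) of each HIN-200 gene in the 3 libraries labelled female (left of each pair) and the 3 labelled male, with points for libraries and bars for group means. In every gene the points labelled female sit below those labelled male, from Ifi209 at 199 to 225 CPM (label female) against 291 to 306 CPM (label male) down to Ifi208 at 2.68 to 4.18 CPM (label female) against 8.64 to 9.92 CPM (label male).

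Ifi213, Ifi208 and Ifi206, whose start-site windows are nearly the same, had the largest differences. RefSeq lists Pydc4 and Pydc3, names for pyrin-domain proteins, as synonyms of Ifi213 and Ifi208. Protein sequences were not examined, so whether the products of Ifi213 and Ifi208 hold a HIN domain is not known here. Ifi213 (ENSMUSG00000073491) had 24.7, 26.0 and 25.8 CPM in the libraries labelled female, against 84.3, 78.9 and 79.9 CPM in those labelled male. The 3 values in each group lay close together, and the gap between the groups was 52.9 CPM. This was a log2 fold change of -1.67 (SE 0.071), or 3.18-fold lower.

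Ifi206 (ENSMUSG00000037849) had 7.88, 6.86 and 6.94 CPM in the libraries labelled female, against 22.3, 17.6 and 20.7 CPM in those labelled male. Its groups were 9.68 CPM apart at their nearest values, and the log2 fold change was -1.48 (SE 0.13). Ifi208 (ENSMUSG00000066677) was the lowest member, with 4.18, 3.88 and 2.68 CPM in the libraries labelled female, against 9.32, 9.92 and 8.64 CPM in those labelled male. It rested on 54 to 174 counts per library, and female replicate 3 was the lowest library by a wide margin. The fitted log2 fold change was -1.38 (SE 0.18).

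Together, Ifi206, Ifi208 and Ifi213 summed to 36.8, 36.7 and 35.4 CPM in the libraries labelled female, against 116, 106 and 109 CPM in those labelled male, 3.04-fold lower. Their share of the family sum was 4.65 ± 0.171% in libraries labelled female against 8.71 ± 0.230% in libraries labelled male (SD, n = 3 each). This trio was set apart after its values were seen.

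Ifi205 and Ifi211, in which the 2 free bases of the element are TT, came next. In mouse macrophages the Ifi205 protein is known to regulate expression of the inflammasome adaptor Pycard. Ifi205 (ENSMUSG00000054203) had 7.30, 7.21 and 8.28 CPM in the libraries labelled female, against 17.3, 15.9 and 14.9 CPM in those labelled male. It was 2.11-fold lower, a log2 fold change of -1.08 (SE 0.13). Ifi211 (ENSMUSG00000026536), for which RefSeq lists Mnda as a synonym, had 49.0, 52.5 and 46.2 CPM in the libraries labelled female, against 92.1, 80.9 and 79.5 CPM in those labelled male. The log2 fold change of Ifi211 was -0.77 (SE 0.074), close to the -0.72 (SE 0.056) of Mndal, so Ifi211 is not set apart from the members below. Both members kept well apart between the groups, with the library labelled male replicate 1 the highest for each.

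Mndal and Ifi203, which share their stretch around the element, were abundant members with closely similar differences. Mndal (ENSMUSG00000090272) is named for its likeness to the myeloid nuclear differentiation antigen. It had 158, 165 and 158 CPM in the libraries labelled female, against 263, 264 and 265 CPM in those labelled male. Among the members it had the smallest spread within each group, a coefficient of variation of 2.55% in libraries labelled female against 0.467% in libraries labelled male. For Mndal the log2 fold change was -0.72 (SE 0.056). Ifi203 (ENSMUSG00000039997) had 166, 146 and 130 CPM in the libraries labelled female, against 239, 219 and 221 CPM in those labelled male. It varied more within the libraries labelled female (12.2%), and its log2 fold change was -0.62 (SE 0.074).

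Ifi204 and Ifi207 were lower to a similar extent. Ifi204 (ENSMUSG00000073489), the IFI16-like sensor, had 93.5, 89.9 and 86.7 CPM in the libraries labelled female, against 147, 148 and 142 CPM in those labelled male. Its log2 fold change was -0.69 (SE 0.060), or 1.62-fold lower. Ifi207 (ENSMUSG00000073490) had 87.7, 75.5 and 72.8 CPM in the libraries labelled female, against 128, 119 and 119 CPM in those labelled male. The log2 fold change of Ifi207 was -0.63 (SE 0.071). In both genes the lowest library labelled male was above the highest labelled female by at least 31.0 CPM.

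Ifi209, the most abundant member and the one without the element in its window, had the smallest difference. Whether the element bears on the size of a difference was not tested. Ifi203, Mndal and Ifi207 have the element in the same letters as Ifi213. Their log2 fold changes were -0.62, -0.72 and -0.63, where that of Ifi213 was -1.67. RefSeq lists Pyhin1 and Ifix as synonyms of Ifi209. Ifi209 (ENSMUSG00000043263) had 225, 215 and 199 CPM in the libraries labelled female, against 302, 306 and 291 CPM in those labelled male. The groups still lay 66.3 CPM apart. Its log2 fold change was -0.49 (SE 0.060), or 1.41-fold lower, and its share of the family sum was 27.2 ± 0.159% in the libraries labelled female against 23.6 ± 0.602% in those labelled male (SD, n = 3 each).

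Between genes, levels were compared as CPM per kilobase of exon, with exon lengths from GENCODE M21 on build GRCm38. On this scale the order of mean levels was the same in both groups. Ifi209 led, with 60.1 ± 3.67 CPM per kilobase in libraries labelled female against 84.5 ± 2.18 in libraries labelled male. Mndal followed with 44.1 ± 1.12 CPM per kilobase under the label female against 72.7 ± 0.339 under the label male (SD, n = 3 each). Ifi211, Ifi204, Ifi207 and Ifi203 came next, with means of 22 to 27.6 CPM per kilobase in libraries labelled female against 33.8 to 47.2 in libraries labelled male.

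In the libraries labelled female, each of these 4 overlapped its neighbour in the order, and in those labelled male only Ifi207 and Ifi203 did. Ifi213, Ifi206, Ifi205 and Ifi208 stood far below, with means of 0.681 to 3.73 CPM per kilobase in libraries labelled female against 1.77 to 11.8 in libraries labelled male. In that low range no neighbours overlapped in either group. The members with the largest differences were thus also the least abundant per length, with Ifi213 the highest of the low set.

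The sources used here do not say how reads that match several genes were assigned. Near-identical copies therefore make single members, and their place in the order above, uncertain. As a measure of this, every window of 75 bases in a member's GENCODE M21 transcripts was looked up in the transcripts of all other genes. For Ifi211, 63.6% of such windows also occurred elsewhere, in Ifi205 (40.6%), Ifi204 (23.0%) and Mndal (10.4%). For Ifi209 the share was 23.1%, all of it with Ifi214. For the other 8 members it ran from 2.80% in Ifi207 to 17.6% in Ifi206. With windows of 150 bases it was 46.4% for Ifi211, 0.223% for Ifi213 and 0 for Ifi207.

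Sums over genes that share sequence were lower under the label female as well. Ifi205 and Ifi211 together had 56.8 ± 2.64 CPM in libraries labelled female against 100.2 ± 8.09 CPM in libraries labelled male (SD, n = 3 each), a log2 ratio of -0.82. That is close to Ifi211, which makes up most of the sum, and smaller in size than the -1.08 of Ifi205 alone. Ifi204, Ifi205 and Ifi211 together had 147 ± 4.92 CPM in libraries labelled female against 246 ± 9.69 CPM in libraries labelled male (SD, n = 3 each), a log2 ratio of -0.74, and Ifi204 makes up most of that sum. Ifi209 with Ifi214 was 1.41-fold lower, as was Ifi209 alone.

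**Figure D3:**
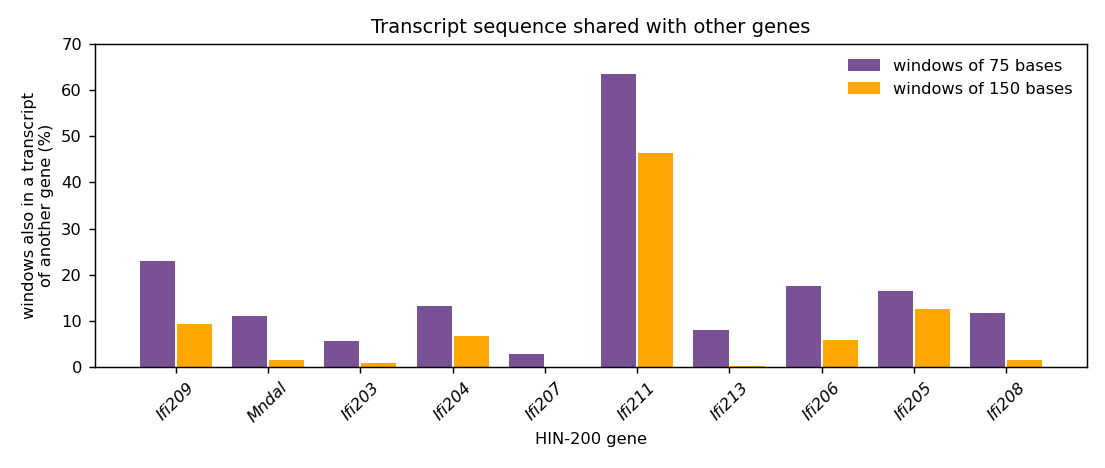
Share of windows of 75 bases (purple) and 150 bases (orange) in each member's transcripts that also occur in a transcript of another gene. Ifi211 stands out at 63.6% and 46.4%, and Ifi209 follows at 23.1% and 9.28%.

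Along chromosome 1 the members run in the order Ifi206, Ifi213, Ifi209, Ifi208, Ifi207, Ifi204, Mndal, Ifi211, Ifi203 and Ifi205, with Aim2 before the first, Ifi214 after Ifi206 and Ifi202b before Ifi205. Size of difference did not follow this order. Ifi209, with the smallest difference, lies between Ifi213 and Ifi208. Aim2, the DNA sensor of the inflammasome, fell less than any member, with 72.6, 74.1 and 74.1 CPM in the libraries labelled female against 88.4, 93.9 and 87.2 CPM in those labelled male. Its log2 fold change was -0.29 (SE 0.062, adjusted p = 0.00336 by edgeR's quasi-likelihood test). Aim2 shared no window of 75 bases with another gene, and its start-site window held no match to the element.

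The cluster gene Ifi214 was close to the limit of detection, with 0.741, 1.11 and 0.744 CPM in the libraries labelled female against 0.678, 2.00 and 1.97 CPM in those labelled male. Its groups overlapped, and it did not pass (log2 fold change -0.83, SE 0.41, edgeR adjusted p = 0.199). Ifi202b, whose protein restrains Aim2, had 0 counts in all 6 libraries. A count of 0 allows up to 0.149 to 0.159 CPM under the label female and 0.169 to 0.179 CPM under the label male (3 counts per library), as far as counting error goes.

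**Figure D4:**
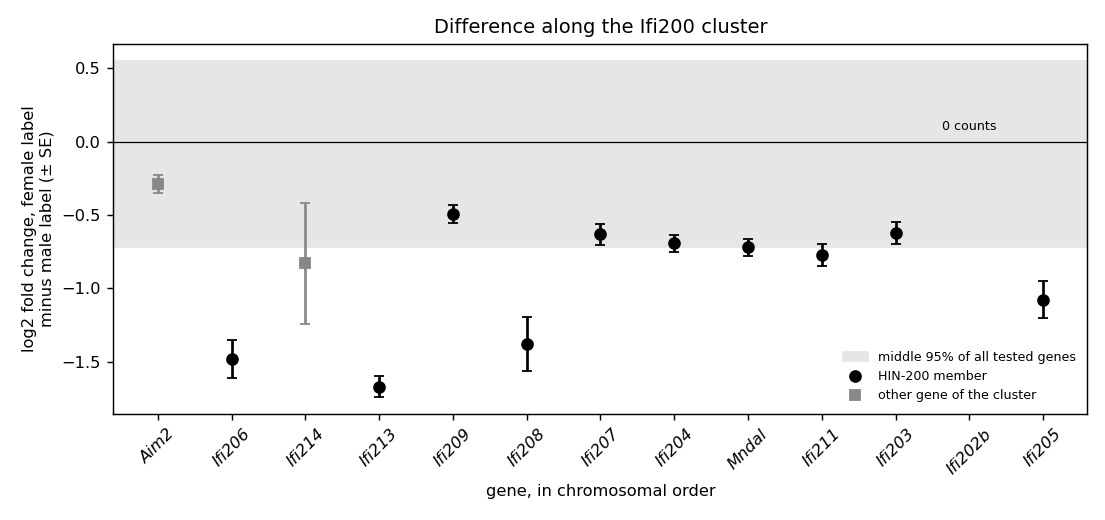
Log2 fold change (label female minus label male, ± SE) of genes of the Ifi200 cluster in chromosomal order, with members as circles and other cluster genes as squares. The grey band from -0.72 to 0.55 holds the middle 95% of all genes tested. Ifi206, Ifi213 and Ifi208 lie at -1.38 or below, with Ifi209 at -0.49 between them.

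The members' profile over the 6 libraries was compared with that of other genes. Profiles were centred log2 CPM, and likeness was the root mean square difference from the members' mean profile among 8727 genes of at least 3 log2 CPM outside the members. The 5 nearest were Slfn5 (0.069 on the log2 scale), Ifit2 (0.070), Gbp9 (0.074), Rnf213 (0.090) and Oasl2 (0.093). Slfn5, a schlafen protein, had 99.0 ± 4.44 CPM in libraries labelled female against 174 ± 5.16 CPM in libraries labelled male (SD, n = 3 each). The members themselves lay between 0.107 (Ifi211) and 0.362 (Ifi213) from their own mean profile. That mean profile stood at -0.40, -0.46 and -0.56 in libraries labelled female against 0.54, 0.45 and 0.44 in libraries labelled male. It is thus mainly the difference between the labels, which was known when the members were chosen. The 5 nearest genes are therefore genes with a like difference, with log2 fold changes from -0.81 (Rnf213) to -1.12 (Oasl2). Whether they share regulation with the members was not tested.

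Other genes of the pathway were read from lists drawn up with earlier results of these data known. Among 26 interferon-induced antiviral effectors, all 25 tested fell under the label female (edgeR, adjusted p under 0.05), with a median log2 fold change of -0.71. The largest decreases were those of Ifit3 (-1.86), Oasl1 (-1.78), Ifit3b (-1.69) and Ifi44 (-1.63). Ifit3, an RNA-binding restriction factor, had 9.30 ± 1.00 CPM in libraries labelled female against 33.7 ± 3.85 CPM in libraries labelled male (SD, n = 3 each). Of all genes tested, 6.62% were lower and 7.29% higher by the same rule.

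Genes that carry the interferon signal went both ways. Of 15 tested, 6 fell, 2 rose and 7 did not pass, with a median log2 fold change of -0.15. Usp18, a brake on the interferon receptor, fell to 10.9 ± 1.14 CPM in the libraries labelled female, against 22.9 ± 1.98 CPM in those labelled male (SD, n = 3 each; log2 -1.07, edgeR adjusted p = 1.67e-06). Stat2, which carries the signal to the nucleus with Irf9, fell to 63.4 ± 4.05 CPM in the libraries labelled female, against 114 ± 5.20 CPM in those labelled male (SD, n = 3 each; log2 -0.85, edgeR adjusted p = 2.51e-08). Socs1 (log2 -0.84) and Irf9 (log2 -0.31) fell as well, and the feedback inhibitor Socs3 (log2 0.57) and the kinase Jak1 (log2 0.27) rose.

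The receptor genes Ifnar1 (log2 -0.08) and Ifnar2 (log2 -0.06) did not pass, and Ifnb1, the gene of interferon beta, had 0 counts in all 6 libraries. Without male replicate 1, 3 of the signalling genes fell and 1 rose. There Socs1 (edgeR adjusted p = 0.0751), Irf9 (0.051) and Jak1 (0.0723) missed the threshold.

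Of 21 genes of cytosolic DNA sensing tested, 4 fell, 1 rose and 16 did not pass, with a median log2 fold change of -0.10. Irf7, the interferon-inducible factor that amplifies interferon genes, fell to 61.7 ± 6.48 CPM in the libraries labelled female, against 138 ± 7.04 CPM in those labelled male (SD, n = 3 each; edgeR adjusted p = 1.16e-09). Zbp1, a sensor of Z-form nucleic acids, fell by 1.03 on the log2 scale and the kinase Ikbke by 0.44. Unc93b1, which escorts nucleic acid receptors to endosomes, fell by 0.22, a call lost without female replicate 1 (edgeR adjusted p = 0.076), male replicate 1 (0.108) or male replicate 3 (0.0778).

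STING, the adaptor that Ifi204 acts through, went the other way. Its gene, listed as Tmem173, had 70.4 ± 4.75 CPM in libraries labelled female against 60.0 ± 4.996 CPM in libraries labelled male (SD, n = 3 each; log2 0.23, edgeR adjusted p = 0.0443). This call was lost without female replicate 2 (0.209), male replicate 2 (0.117) or male replicate 3 (0.239), with upper-quartile factors (0.063), with a filter of 10 CPM (0.0538) and by DESeq2 (0.0762). Without female replicate 3, 2 genes of the list rose. Cgas (log2 -0.27, edgeR adjusted p = 0.059) and Tbk1 (log2 -0.02) did not pass, and Trex1 had 0 counts in all 6 libraries. How reads were assigned to genes is not stated, so the 0 of Trex1 cannot be read as absence of its transcript.

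Of 12 inflammasome genes, 3 fell, 2 rose and 7 did not pass. Nlrp3, an inflammasome sensor (log2 -0.43), Casp4, the caspase that binds lipopolysaccharide (log2 -0.35), and Aim2 fell. Il1b, the gene of interleukin 1 beta, rose to 141 ± 11.9 CPM in the libraries labelled female, against 70.8 ± 3.23 CPM in those labelled male (SD, n = 3 each; log2 0.99, edgeR adjusted p = 4.31e-09). Its antagonist Il1rn rose as well (log2 0.67). Pycard, the adaptor shared with Aim2 (log2 0.02), Casp1 (log2 -0.07) and the pore-forming Gsdmd (log2 -0.03) did not pass. The call of Casp4, whose groups overlapped, was lost without female replicate 2 (edgeR adjusted p = 0.0505), male replicate 1 (0.0553) or male replicate 3 (0.0762), and 5 genes fell without female replicate 3.

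**Figure D5:**
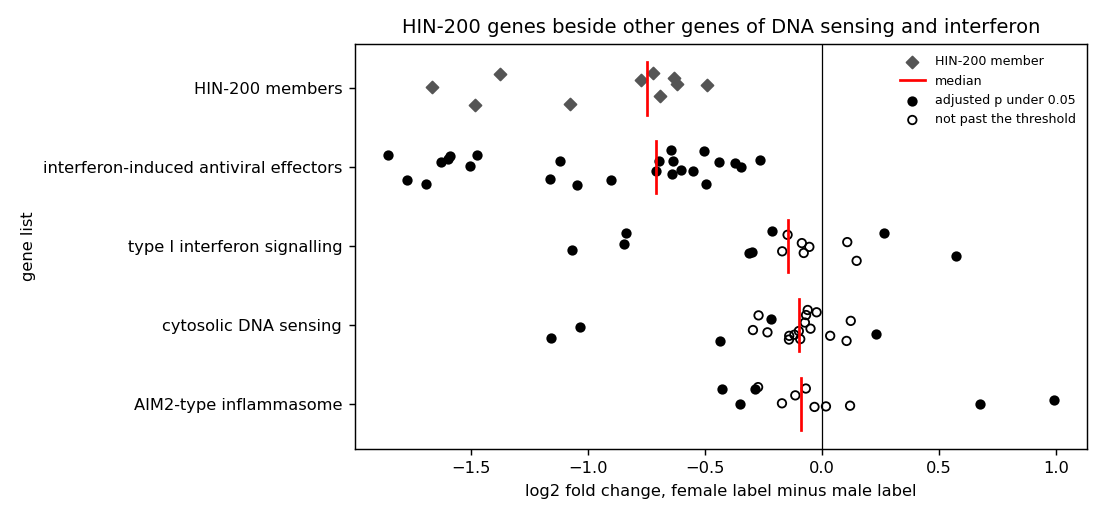
Log2 fold change (label female minus label male) of each tested gene in 5 lists, with filled points for genes past the threshold, open points for the others, diamonds for the HIN-200 members, and red lines at list medians. The medians are -0.75 for the members, -0.71 for antiviral effectors, -0.15 for interferon signalling, -0.10 for DNA sensing and -0.09 for the inflammasome.

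Transcripts of dendritic cells and B cells were lower along with the members. The part of other cells in the result was not tested. Dendritic cell markers, of which 7 of 13 fell (edgeR), summed to 324 to 342 CPM in libraries labelled female against 476 to 491 CPM in libraries labelled male. Siglech, a plasmacytoid marker, led them with 91.8 ± 5.90 CPM in libraries labelled female against 142 ± 5.93 CPM in libraries labelled male (SD, n = 3 each). B cell markers, of which 8 of 12 fell, summed to 190 to 261 CPM in libraries labelled female against 310 to 379 CPM in libraries labelled male. None of these markers was at 0, and Bst2 of the dendritic cell list is itself interferon-induced. By the same edgeR rule, 6.62% of all genes tested fell and 7.29% rose. These shares belong beside the counts of every marker list here and below.

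Mitochondrially encoded transcripts, of which 8 of 12 fell, took 6.42% to 8.49% of counts in libraries labelled female against 10.7% to 13.1% in libraries labelled male. Neutrophil markers, of which 7 of 11 rose, summed to 63360 to 81460 CPM in libraries labelled female against 56910 to 62860 CPM in libraries labelled male. Erythroid markers, led by Hbb-bs, of which 4 of 7 rose, summed to 36.2 to 66.2 CPM in libraries labelled female against 19.5 to 24.96 CPM in libraries labelled male. Stromal markers, led by Pecam1, of which 2 of 7 fell and 1 rose, summed to 64.9 to 76.1 CPM under the label female against 81.4 to 87.5 CPM under the label male. For each of these sums the groups did not overlap (p = 0.1 by an exact two-sided permutation test, the lowest that 3 against 3 libraries can give, and 0.15 after Benjamini-Hochberg adjustment over 9 lists). Most of the stromal sum was Pecam1, with 44.7 ± 4.75 CPM in libraries labelled female against 51.2 ± 2.19 CPM in libraries labelled male (SD, n = 3 each). For Pecam1 alone the groups overlapped, and it did not pass (edgeR adjusted p = 0.114).

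Macrophage and monocyte markers, led by Lyz2, of which 2 of 15 fell and 2 rose, summed to 11460 to 13110 CPM in libraries labelled female against 10170 to 11950 CPM in libraries labelled male (p = 0.4 by the exact permutation test, adjusted 0.45). Markers of T and NK cells, led by Nkg7, of which 1 of 10 fell, summed to 140 to 166 CPM in libraries labelled female against 148 to 172 CPM in libraries labelled male (p = 0.5 by the same exact test). In both of these lists the groups overlapped. Most of the T and NK sum was Nkg7, with 100.5 ± 6.61 CPM in libraries labelled female against 100.9 ± 6.43 CPM in libraries labelled male (SD, n = 3 each). Most of the macrophage and monocyte sum was Lyz2. It had 9513 ± 854 CPM in libraries labelled female against 8741 ± 890 CPM in libraries labelled male (SD, n = 3 each). That sum therefore says little of the other markers in its list. The 2 that rose were Ccr2 (log2 0.52) and Adgre1 (log2 0.24), and the 2 that fell were Fcgr1 (log2 -0.70) and Cd68 (log2 -0.28). Ccr2 had 879 ± 58.7 CPM in libraries labelled female against 614 ± 28.4 CPM in libraries labelled male (SD, n = 3 each).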

How the data were processed

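The authors deposited raw counts per Ensembl gene, as whole numbers without normalization, in 6 libraries. The submitters' processing notes list cutadapt 1.15, HISAT2 2.0.5 and build GRCm39, without saying what each did. Which program counted the reads, and whether by strand or with multiple matches, is left unsaid there. Symbols came from GENCODE M21 (GRCm38), which named 21847 of 21955 identifiers. Libraries were grouped by their labels.

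Counts were fitted with edgeR 4.0.16 in R 4.3.3, by its quasi-likelihood test with TMM factors and group as the only term. Genes were kept by filterByExpr at a minimum count of 10, and p-values were adjusted by Benjamini-Hochberg over 11903 genes (threshold 0.05). All 10 members passed the filter. The SE was derived from the fold change and its F statistic. Marker sums were compared by exact permutation. P-values reflect only how these libraries vary, and that variation may be technical. No pair of libraries of a group agreed within sampling noise, the lowest chi-square per degree of freedom being 4.10. Windows were aligned with Biopython 1.88. The script was tested on simulated data.

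The members and lists were chosen with earlier results of these data known. Of 204 list entries 196 matched a row, and 3 of these were older names of members. Genes were named by rule: all members, other cluster genes, Y-linked genes, up to 4 called genes per direction of each pathway list, the most abundant marker per cell type and the 5 genes of nearest profile. Genes named as not passing or at 0, and the macrophage and monocyte markers named as having risen or fallen, were picked with their values in view. The most abundant marker of 1 list is not reported here.

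Other settings tried were size factors of DESeq2, upper-quartile factors, the tests of DESeq2 1.42.0 and limma-voom (limma 3.58.1), leaving out the filter, requiring 10 CPM in 3 libraries, leaving out each library, and the replicate number as a block.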

Additional observations from a re-analysis of the deposited data

How the results depend on the processing

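All 10 members stayed lower in the libraries labelled female under every alternative that gave a value (129 values, each within 1 SD between replicates of the value reported). As the groups did not overlap in any member, leaving out 1 library could hardly reverse a direction or move a value beyond that SD. Those fits are therefore no test of the difference. The filter of 10 CPM left out Ifi208. The median log2 fold change of the members ran from -0.78 to -0.71 with single libraries left out, and the log2 ratio of the family sum from -0.73 to -0.66. Counts of other genes moved more. Over the fits that leave out 1 library, 439 to 1439 genes were higher and 467 to 1269 lower, 0 to 2 DNA sensing genes were higher, 2 to 5 inflammasome genes lower, and 3 to 8 interferon signalling genes lower and 1 to 3 higher. The number of DNA sensing genes higher was 0 with upper-quartile factors, with the filter of 10 CPM and by DESeq2, where the gene lost was Tmem173. The cause was not tested.

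With the replicate number as a block, 1007 genes were higher and 914 lower, and the members' median was -0.75. The deviations of same-numbered libraries from their group means had correlations of -0.039, 0.065 and 0.063. Those of differently numbered libraries ran from -0.138 to 0.09. Deviations within a group cancel each other, so these values cannot decide whether same-numbered libraries were paired. The depth limits Ifi208 and Ifi214 most, with as few as 54 and 12 counts in a library.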
